A study of Homo sapiens with 10 samples.

Results

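Long intergenic non-coding RNA (lincRNA) genes carry a provisional name made of LINC and a number until a function earns them another. The members described here are the 115 genes with such a name that held 60 or more reads summed over 4 RNA libraries, of 981 LINC genes and 50868 genes in the table. Of the other LINC genes, 342 held 1 to 59 reads and 524 held none. The members were selected on their summed reads alone, so low genes are missing and a gene could enter through 1 library alone. At the threshold, LINC00694 (63 reads), LINC01359 (64) and LINC00893 (67) were just inside, and LINC01588 (59), LINC01176 (58) and LINC01366 (56) just outside.

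The cells were Kasumi-1, an established human myeloid leukemia line with the t(8;21) translocation, at 4-5 passages. That translocation makes the AML1-ETO fusion protein, which works in a complex that also holds E proteins. All 4 groups were infected with a retrovirus, sorted for GFP and harvested 4 days after infection. They received the empty MIGR1 vector, or HA-tagged HEB, E2A or E2-2 in addition to the cells' own E proteins. Each group is 1 library from 1 cell line, so no p-value is possible and all intervals are 95% exact intervals for counting error only. The series title names different roles of the E proteins in this leukemia as its question. The HA ChIP-seq samples were not analysed here.

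E proteins are basic helix-loop-helix transcription factors that bind the E-box, a short DNA motif with the letters CANNTG. LincRNAs are transcribed and often spliced and polyadenylated like messenger RNAs, and many are low in abundance and restricted to few cell types. Some act on genes near their own site of transcription, some act elsewhere in the cell, and some turned out to encode short proteins.

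The libraries held 14816708 to 17673090 counted reads, and 3 reads correspond to 0.170 to 0.198 CPM (counts per 1000000 counted reads, with library sizes scaled by edgeR's TMM method). Each transduced gene was highest in its own library: TCF4 (E2-2) at 823 CPM against 0.256 in vector, TCF3 (E2A) at 1312 against 252, and TCF12 (HEB) at 836 against 165. Of the Kasumi-1 markers, RUNX1T1 lay at 146 to 207 CPM and KIT at 626 to 770 CPM. Markers of other cells were low: HBB and HBA1 had 0 reads in all 4 libraries, KRT19 at most 1, CD14 at most 3, CDH1 at most 5, COL1A1 at most 6, COL1A2 at most 3, DCN at most 4, MS4A1 at most 1 and CD3E at most 9. EPCAM, listed among the epithelial markers, held 622 to 871 reads, and CD4, listed among the lymphoid markers, 633 in vector to 1504 in E2A. The myeloid marker CD33 ranged from 28.3 CPM in vector to 115.5 CPM in E2-2 and the progenitor marker CD34 was at 253 CPM in vector and 130 to 165.5 CPM in the others. The part of CD4, CD33 and CD34 in the differences of the members was not tested.

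The members took a small and even share of each library, 0.177% of counted reads in vector, 0.158% in HEB, 0.169% in E2A and 0.161% in E2-2. LINC00657 alone supplied 29.2% to 31.7% of these reads. The median member held 254 reads over the 4 libraries, 24 members held under 100 and 19 held 1000 or more. A read was found in every library for 114 members, the exception being LINC00642 with 0 in vector. In 5 members the 3 libraries other than the highest held under 45 reads together: LINC00642, LINC00996, LINC01480, LINC01359 and LINC00694. Annotation has moved since the table was made. By Ensembl identifier 114 members matched a current symbol, and 29 of them now have another name. RefSeq lists 11 of the 115 as protein-coding and 2 as transcribed pseudogenes.

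A member was called higher or lower between 2 libraries if 30 or more of its reads lay in them, the levels differed 2-fold or more and 1 was outside the interval of the fold. Such calls describe these libraries and leave out differences between cultures. In bulk RNA, fewer cells with a transcript and less of it per cell cannot be told apart. Of the members, 34 (29.6%) were called in at least 1 of the 6 pairings of libraries and 81 in none, and the share among all genes with 60 or more reads was 15.7%. Against vector, 28 members (24.3%) were called at least once, beside 13.5% of all such genes. These shares are not matched for reads per gene.

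E2-2 was compared with vector first, to ask which lincRNAs differ when E2-2 is added. Enough reads were present for 113 members, and 11 of them were called higher and 12 lower in E2-2. Over all 13884 genes tested, 8.45% were called higher, 3.55% lower and 12% either way, beside 9.73% higher and 10.6% lower among the members. The median log2 fold of the members was -0.04, and that of all tested genes -0.03. Calls depend on reads, and members are read-poor. Among members with 60 to under 200 reads, 23.5% were called either way, and among all genes of that read range 23.8%. With 200 to under 1000 reads, 11 of 43 members (25.6%) were called, 5 higher and 6 lower, against 16.8% of all such genes. With 1000 or more reads, 0 of 19 members and 6.19% of all such genes were called. No test of these differences was made.

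**Figure D1:**
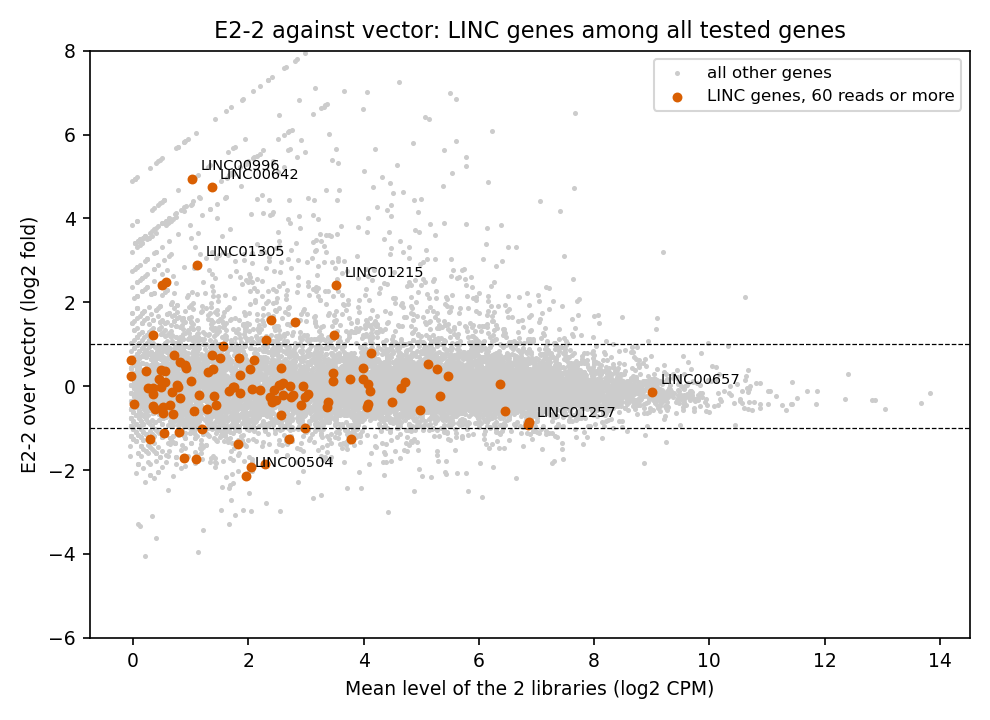
E2-2 over vector on a log2 axis against the mean level of both libraries in log2 CPM, with 1 point per gene, LINC members in orange and all other tested genes in grey. Dashed lines mark 2-fold, 9 genes lie outside the plotted range, and members run from -2.13 (LINC00504) to 4.95 (LINC00996), with LINC00642 drawn at its lower bound.

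LINC00642 and LINC00996 showed the largest differences. LINC00642 (ENSG00000233208, GRCh38 chromosome 14, 90455230 to 90458905) had 0 reads in vector, 9 in HEB, 18 in E2A and 78 in E2-2. With the vector count set to the floor of 3 reads it was 26.7-fold higher in E2-2, a value that depends on that floor. LINC00996 (ENSG00000242258, chromosome 7, 150433654 to 150448140) had 2 reads in vector, 12 in HEB, 30 in E2A and 60 in E2-2, which is 30.9-fold (8.18 to 260.6) higher in E2-2. Vector stood lowest and E2-2 highest for both genes. Both also entered the member list largely through the E2-2 library, so a difference was built into their selection.

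LINC01215, whose nearest coding start is that of CD47, had the most E2-2 reads among the higher members. It held 57 reads in vector, 75 in HEB, 174 in E2A and 295 in E2-2 (3.65, 4.53, 9.85 and 19.45 CPM), and the E2-2 level was 5.32 times (4.00 to 7.199) the vector level. The vector and HEB levels were close, with E2A and E2-2 above them. LINC01305 (8, 14, 52 and 58 reads in vector, HEB, E2A and E2-2) was 7.46-fold (3.54 to 18.1) higher. It formed a pair of low libraries and a pair of high ones. LINC01237 (7, 30, 35 and 38 reads in the same order) was 5.58-fold (2.46 to 14.8) higher, with vector apart from the other 3 libraries. LINC00937 (7, 14, 32 and 36 reads) was 5.29-fold (2.32 to 14.1) higher.

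The other higher members had smaller folds. LINC00689 had 56 reads in vector, 87 in HEB, 137 in E2A and 158 in E2-2, 2.90-fold (2.13 to 4.01) higher in E2-2. LINC00152, now called CYTOR for its role as a cytoskeleton regulator RNA, had 41, 90, 97 and 119 reads and was 2.985-fold (2.08 to 4.37) higher. LINC00152 has a near-identical copy, MIR4435-2HG, whose reads may be split between the 2 genes. MIR4435-2HG had 231, 208, 311 and 286 reads and was 1.27-fold (1.07 to 1.52) higher. LINC00294 (104, 137, 205 and 237 reads) was 2.34-fold (1.85 to 2.98) higher and LINC00265 (49, 72, 101 and 102 reads) 2.14-fold (1.51 to 3.075). LINC01480, with 12 reads in vector and 27 in E2-2, was the lowest-ranked call at 2.31-fold (1.13 to 5.015). It is among the 5 members whose libraries other than the highest held under 45 reads together, so its selection leaned on its highest library.

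Among lower members LINC00504 came first, with 99 reads in vector, 66 in HEB, 67 in E2A and 22 in E2-2, 4.375-fold (2.735 to 7.30) lower in E2-2. Here the E2-2 library stood below the other 3. LINC01341 also had its lowest level in E2-2, with 102, 60, 66 and 26 reads and a 3.81-fold (2.46 to 6.115) lower level. LINC00282, since renamed TMEM272 and listed by RefSeq as protein-coding, had 120, 86, 59 and 32 reads and was 3.65-fold (2.45 to 5.57) lower. LINC00094, now BRD3OS for its place opposite the BRD3 gene and also listed as protein-coding, had 303, 256, 222 and 124 reads, 2.38-fold (1.92 to 2.95) lower.

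LINC01094 and LINC01521 were lower in all 3 E protein libraries. LINC01094 had 51 reads in vector and 15, 20 and 15 in HEB, E2A and E2-2, 3.31-fold (1.83 to 6.33) lower in E2-2. LINC01521 had 144 reads in vector and 70, 75 and 59 in the others, 2.37-fold (1.74 to 3.27) lower in E2-2. For both genes vector was the library apart. LINC00964 (44, 29, 21 and 13 reads) was 3.29-fold (1.74 to 6.66) lower. LINC00908 (37, 31, 19 and 17 reads) was 2.12-fold (1.16 to 4.01) lower. LINC01011 (2.39-fold) and LINC01097 (2.15-fold) were also called lower. LINC01597 (48, 33, 42 and 23 reads) lay at the threshold, 2.03-fold (1.21 to 3.495) lower, and at 1.97-fold without TMM scaling it was not called.

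LINC01106 and LINC01123 illustrate genes with copies. LINC01106 had 80, 48, 52 and 30 reads in vector, HEB, E2A and E2-2, 2.59-fold (1.685 to 4.09) lower in E2-2. LINC01123, on the same chromosome, had 163, 142, 140 and 80 reads and was 1.98-fold (1.51 to 2.62) lower, just under the 2-fold rule. Their RefSeq promoter windows shared 95.9% of all words of 31 letters. Reads of near-identical genes can be assigned to either, so the separate folds are less certain than their intervals.

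**Figure D2:**
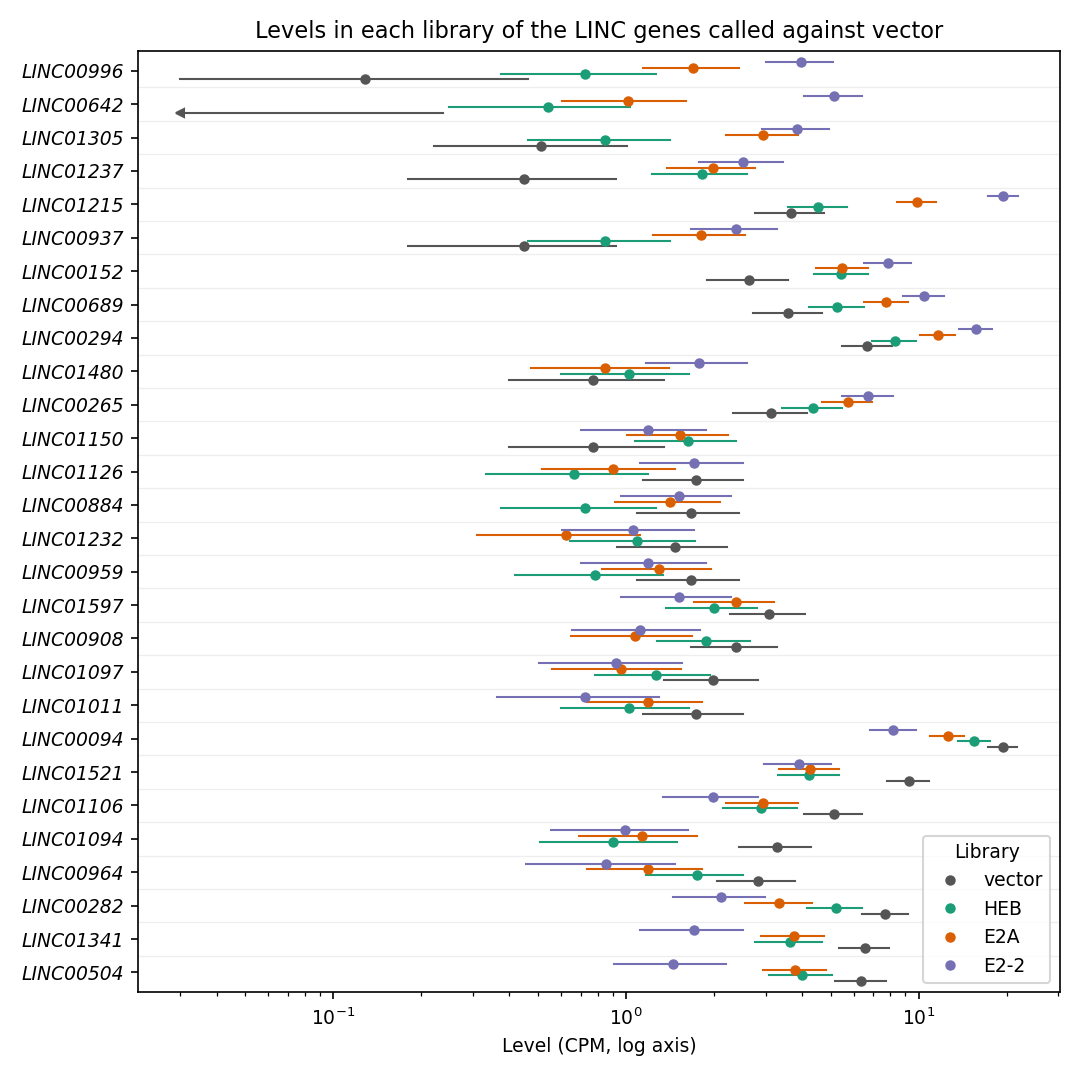
Level of the 28 LINC genes called against vector in at least 1 comparison, on a log axis of CPM, with each library as a point and a line for the 95% exact Poisson counting interval. The arrow marks LINC00642 in vector, which had 0 reads, and LINC01215 goes from 3.65 CPM in vector to 19.45 CPM in E2-2.

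Promoters of the members that differed most are shown because E proteins bind E-boxes and a reader may want to see which letters lie there. Each sequence runs from 250 bases before to 50 bases after the RefSeq start site (GRCh38.p14), 5′ to 3′ on the gene's strand, in lower case with every CANNTG in capitals. The motif reads the same on both strands. Shown are the 5 highest-ranked higher and 3 highest-ranked lower members in E2-2 that have a RefSeq promoter. The higher members are LINC00642 (chr14:90454980-90455279, plus strand), LINC00996 (chr7:150433404-150433703, plus strand), LINC01215 (chr3:108125571-108125870, plus strand), LINC01305 (chr2:174325777-174326076, plus strand) and LINC01237 (chr2:241881113-241881412, plus strand).
LINC00642: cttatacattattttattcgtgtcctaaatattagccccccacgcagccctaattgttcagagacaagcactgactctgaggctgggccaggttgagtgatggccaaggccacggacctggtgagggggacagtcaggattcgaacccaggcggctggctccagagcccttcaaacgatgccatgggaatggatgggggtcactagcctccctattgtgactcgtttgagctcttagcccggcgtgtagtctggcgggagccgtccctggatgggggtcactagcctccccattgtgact
LINC00996: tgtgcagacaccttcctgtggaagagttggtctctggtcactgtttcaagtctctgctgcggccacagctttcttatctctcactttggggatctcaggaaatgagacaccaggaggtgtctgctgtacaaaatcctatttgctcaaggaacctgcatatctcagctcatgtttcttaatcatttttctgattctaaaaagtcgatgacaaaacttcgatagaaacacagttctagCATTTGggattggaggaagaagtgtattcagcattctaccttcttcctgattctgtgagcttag
LINC01215: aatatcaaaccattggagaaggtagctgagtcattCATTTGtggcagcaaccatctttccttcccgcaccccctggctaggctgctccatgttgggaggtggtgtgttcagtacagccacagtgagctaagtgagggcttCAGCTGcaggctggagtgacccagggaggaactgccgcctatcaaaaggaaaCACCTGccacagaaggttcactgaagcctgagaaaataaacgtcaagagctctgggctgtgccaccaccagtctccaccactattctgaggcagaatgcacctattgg
LINC01305: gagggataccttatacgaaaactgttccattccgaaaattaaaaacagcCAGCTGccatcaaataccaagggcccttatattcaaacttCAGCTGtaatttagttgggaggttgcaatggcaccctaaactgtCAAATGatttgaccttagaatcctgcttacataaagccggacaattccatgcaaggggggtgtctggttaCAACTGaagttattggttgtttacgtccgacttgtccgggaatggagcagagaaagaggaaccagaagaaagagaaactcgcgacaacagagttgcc
LINC01237: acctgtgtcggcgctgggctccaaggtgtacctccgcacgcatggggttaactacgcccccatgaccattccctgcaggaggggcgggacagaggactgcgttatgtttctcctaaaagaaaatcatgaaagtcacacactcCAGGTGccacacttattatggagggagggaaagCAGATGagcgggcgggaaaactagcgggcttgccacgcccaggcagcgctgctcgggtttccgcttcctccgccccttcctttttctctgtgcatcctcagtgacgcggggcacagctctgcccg
The lower members are LINC01341 (chr1:246789367-246789666, plus strand), LINC00282 (chr13:51845128-51845427, minus strand, under its RefSeq name TMEM272) and LINC00094 (chr9:134025231-134025530, plus strand, as BRD3OS).
LINC01341: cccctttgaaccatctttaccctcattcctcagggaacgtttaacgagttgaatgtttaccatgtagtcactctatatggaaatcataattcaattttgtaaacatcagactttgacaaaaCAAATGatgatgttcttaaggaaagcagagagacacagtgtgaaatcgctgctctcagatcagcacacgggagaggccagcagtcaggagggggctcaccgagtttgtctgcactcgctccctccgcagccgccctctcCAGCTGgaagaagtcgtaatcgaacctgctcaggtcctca
LINC00282: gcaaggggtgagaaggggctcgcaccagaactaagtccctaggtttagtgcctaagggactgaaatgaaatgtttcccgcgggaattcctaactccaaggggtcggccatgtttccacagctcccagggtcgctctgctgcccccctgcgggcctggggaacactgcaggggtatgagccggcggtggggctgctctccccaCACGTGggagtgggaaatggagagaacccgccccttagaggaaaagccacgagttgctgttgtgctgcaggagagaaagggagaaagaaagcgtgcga
LINC00094: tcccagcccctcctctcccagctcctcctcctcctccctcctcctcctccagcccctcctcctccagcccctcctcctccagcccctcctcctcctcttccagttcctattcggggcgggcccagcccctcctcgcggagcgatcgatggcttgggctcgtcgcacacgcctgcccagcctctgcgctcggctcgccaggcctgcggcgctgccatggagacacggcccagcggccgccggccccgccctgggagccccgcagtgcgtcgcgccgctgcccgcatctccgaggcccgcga

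The window of LINC01305 held 4 E-boxes, of which those at -201 and -161 from the start site read CAGCTG. LINC01215 held 3, with CAGCTG at -110 and CACCTG at -58. LINC01237 held CAGGTG at -108 and CAGATG at -75, and LINC00996 a single CATTTG at -14. No CANNTG was present in the windows of LINC00642 and LINC00094. Among lower members, LINC01341 held CAAATG at -129 and CAGCTG at 11 bases past the start, and LINC00282 held CACGTG at -48. RefSeq promoters were matched for 88 members, with 101 windows because 12 members have more than 1. The share of windows with CANNTG was 72.3% for members and 68.7% for all 35116 promoters. CAGCTG was found in 21.8% of member windows and 17.9% of all, and CACCTG or its reverse CAGGTG in 22.8% and 20.6%. Of the 9 windows of members called higher in E2-2, 6 held CANNTG and 3 CAGCTG, and of the 9 windows of members called lower, 6 and 1. A match shows letters, not binding.

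E2A was next compared with vector by the same rule. Of 113 members, 7 were called higher and 7 lower, 6.19% each way. Among all 13901 genes tested, 4.89% were called higher, 1.58% lower and 6.47% either way. With 60 to under 200 reads, 7.84% of members were called higher and 9.8% lower, beside 9.36% and 5.46% of all genes. With 200 to under 1000 reads the shares were 6.98% and 4.65%, beside 7.56% and 1.73%. With 1000 or more reads, 0 of 19 members and 2.71% of all genes were called. The median log2 fold was -0.04 for members and -0.01 for all genes. All comparisons with vector use the same vector library, so their folds are not independent, and values are set side by side. LINC00996 was 13.2-fold (3.36 to 114) higher in E2A than in vector, LINC01305 5.74-fold (2.71 to 13.99), LINC01237 4.41-fold (1.93 to 11.8) and LINC00937 4.04-fold (1.75 to 10.8). LINC01215 was 2.695-fold (1.99 to 3.70) higher, LINC00689 2.16-fold (1.57 to 3.00) and LINC00152 2.09-fold (1.44 to 3.09). LINC00642, with 18 reads against 0, was 5.30-fold higher with the 0 set to 3 reads, but had too few reads to be called.

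Lower members in E2A were led by LINC01094 at 2.89-fold (1.69 to 5.12), LINC00282 at 2.30-fold (1.67 to 3.20) and LINC01521 at 2.175-fold (1.63 to 2.915). LINC00964 was at 2.37-fold (1.38 to 4.202), LINC00908 at 2.21-fold (1.24 to 4.06) and LINC01097 at 2.07-fold (1.11 to 3.98). LINC01097 had 31, 21, 17 and 14 reads in vector, HEB, E2A and E2-2. LINC01232, with 23 reads in vector and 11 in E2A, was 2.37-fold (1.11 to 5.38) lower. LINC00504 and LINC01341, the lowest members in E2-2, were not called there, with levels 1.67-fold (1.215 to 2.32) and 1.75-fold (1.27 to 2.42) below vector.

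HEB differed from vector in fewer members. Of 109 members, 3 were called higher (2.75%) and 5 lower (4.59%), beside 2.55%, 1.23% and, either way, 3.78% of 13695 genes tested. With 60 to under 200 reads, 4.26% of members were called higher and 8.51% lower, beside 3.91% and 4.81% of all genes. With 200 to under 1000 reads the shares were 2.33% and 2.33%, beside 4.73% and 1.13%. With 1000 or more reads, 0 of 19 members and 1.47% of all genes were called. The median log2 fold was -0.09 for members and 0.01 for all genes. LINC01237 was 4.04-fold (1.74 to 10.9) higher in HEB and LINC00152 2.07-fold (1.415 to 3.07). LINC01150, with 12 reads in vector, 27 in HEB, 27 in E2A and 18 in E2-2, was 2.12-fold (1.04 to 4.60) higher. LINC01094 was 3.61-fold (2.00 to 6.91) lower and LINC01521 2.18-fold (1.63 to 2.95). The remaining lower calls rested on 11 to 13 reads in HEB: LINC01126 (2.60-fold, 1.25 to 5.82), LINC00884 (2.30-fold, 1.12 to 5.00) and LINC00959 (2.12-fold, 1.05 to 4.497). LINC01215 was 1.24-fold (0.867 to 1.78) and LINC01305 1.65-fold (0.646 to 4.54) higher in HEB, and both intervals include 1.

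**Figure D3:**
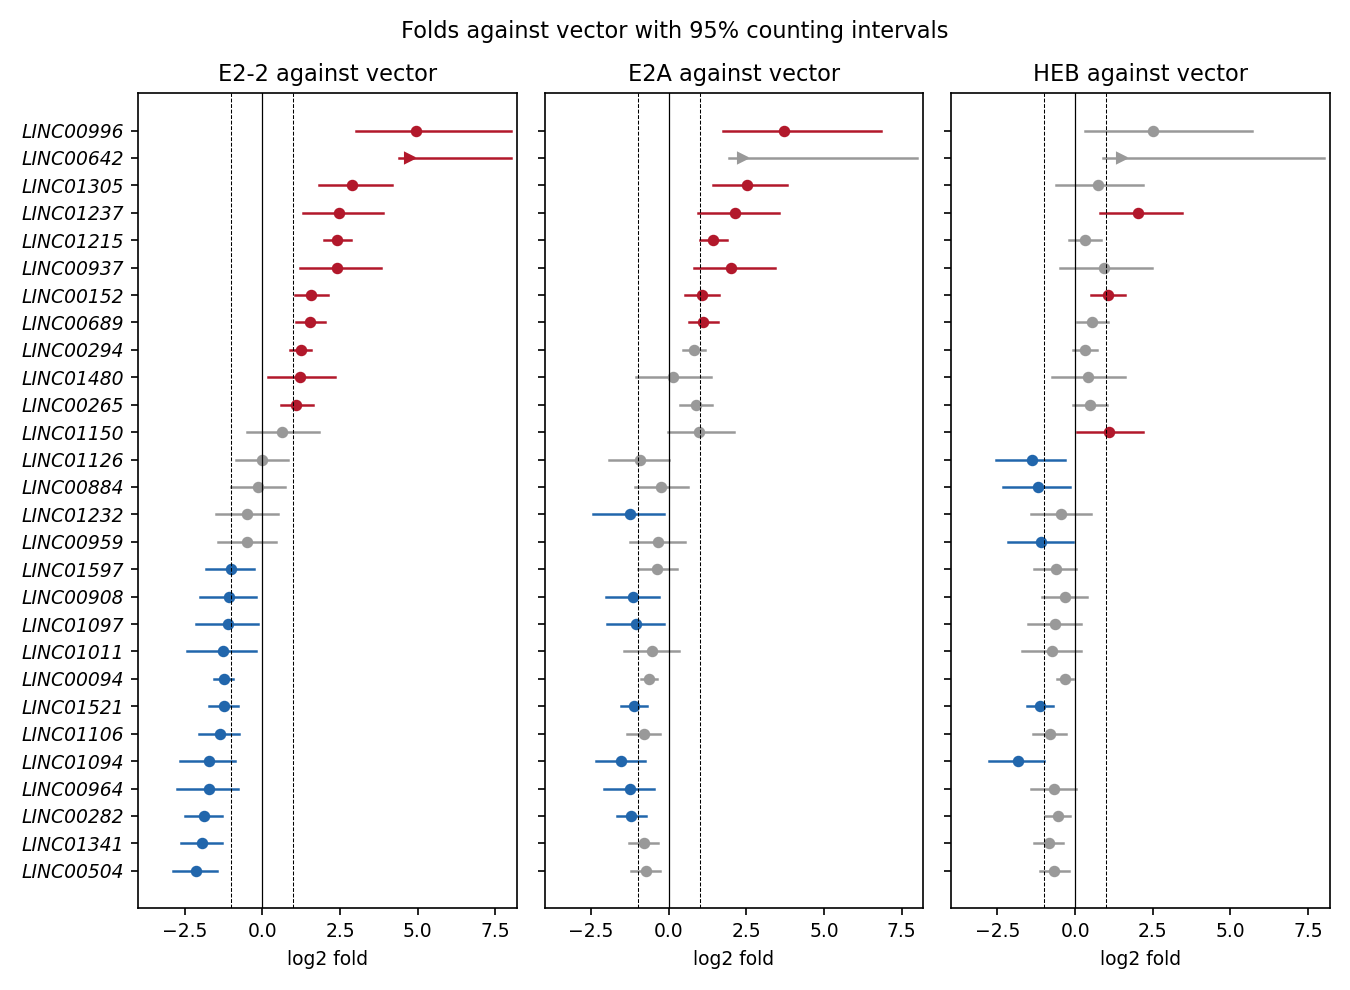
Log2 fold over vector of the same 28 LINC genes in E2-2, E2A and HEB, with lines for 95% counting intervals, red for called higher, blue for called lower and grey for not called. Triangles are folds with a vector count of 0 set to 3 reads. LINC01237 lies between 2.01 and 2.48 in all 3 panels while LINC01215 goes from 0.31 in HEB to 2.41 in E2-2.

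The E proteins were then compared directly. Between E2-2 and E2A, 5 of 112 members were called higher and 3 lower in E2-2, or 4.46% and 2.68%. Among all genes the shares were 3.63%, 1.61% and, either way, 5.25%. Of members with 60 to under 200 reads 10% were called either way, beside 13.2% of all such genes. At 200 to under 1000 reads the shares were 6.98% and 6.74%, and at 1000 or more 0% and 1.43%. LINC00642 was 5.05-fold (2.995 to 8.96), LINC00996 2.33-fold (1.48 to 3.74) and LINC00921 2.06-fold (1.33 to 3.23) higher in E2-2. LINC00921 had 51, 34, 34 and 60 reads in vector, HEB, E2A and E2-2. LINC01262, with 187, 202, 361 and 129 reads, had its highest level in E2A and stood 2.40-fold (1.96 to 2.96) below that in E2-2. LINC00504 was 2.61-fold (1.59 to 4.45) and LINC01341 2.18-fold (1.365 to 3.57) lower in E2-2. LINC01215 was 1.975-fold (1.63 to 2.40) higher in E2-2, just under the rule.

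Between E2-2 and HEB, 8 of 114 members were called higher and 4 lower in E2-2, or 7.02% and 3.51%. Among all genes the shares were 6.09%, 1.57% and, either way, 7.66%. Of members with 60 to under 200 reads 15.4% were called either way, beside 17.3% of all such genes. At 200 to under 1000 reads the shares were 9.3% and 10.5%, and at 1000 or more 0% and 3.03%. Scaling by total counts gave 10 higher and 3 lower. LINC00642 was 9.46-fold (4.73 to 21.5), LINC00996 5.46-fold (2.905 to 11.1) and LINC01215 4.29-fold (3.32 to 5.61) higher in E2-2. LINC00504 was 2.75-fold (1.675 to 4.68), LINC00282 2.46-fold (1.62 to 3.82) and LINC01341 2.115-fold (1.31 to 3.49) lower. Between E2A and HEB, 5 of 110 members were called higher and 1 lower in E2A, or 4.55% and 0.909%. Among all genes the shares were 2.38%, 0.696% and, either way, 3.08%. Of members with 60 to under 200 reads 10.4% were called either way, beside 9.47% of all such genes. At 200 to under 1000 reads the shares were 2.33% and 3.58%, and at 1000 or more 0% and 0.716%. LINC01305 was 3.48-fold (1.90 to 6.80), LINC01004 2.185-fold (1.33 to 3.69) and LINC01215 2.17-fold (1.65 to 2.89) higher in E2A. LINC01004 had 34, 24, 56 and 53 reads in vector, HEB, E2A and E2-2. The lower member was LINC00176 (2.40-fold, 1.39 to 4.295), with 45 reads in HEB and 20 in E2A, which RefSeq now lists as the protein-coding C20orf204.

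None of the 5 members with most reads was called against vector. LINC00657, now NORAD, an RNA that binds PUMILIO proteins and guards chromosome stability, had 8458 reads in vector, 7770 in HEB, 9477 in E2A and 7446 in E2-2. Its level lay 1.10-fold (1.07 to 1.14) below vector in E2-2, and the same comparison gave 1.01-fold (0.982 to 1.04) for E2A and 1.155-fold (1.12 to 1.19) for HEB. LINC01257 had 2367, 2373, 2222 and 1211 reads, and its 1.90-fold (1.77 to 2.04) lower level in E2-2 was the largest difference from vector among the 19 members with 1000 or more reads. LINC00998, which encodes the small membrane protein SMIM30, had 2337, 2148, 1931 and 1261 reads, 1.80-fold (1.68 to 1.93) lower in E2-2. LINC01410 (1649, 1344, 1489 and 1068 reads) was 1.501-fold (1.39 to 1.62) lower, and LINC00641 (1271, 1237, 1506 and 1272 reads) was 1.03-fold (0.952 to 1.11) higher. In E2-2 the interval of LINC00641 included 1, and those of the other 4 members did not.

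Members with a later name or a described product were read next. Besides SMIM30, LINC01420 encodes NBDY, a microprotein that binds the mRNA decapping complex, and had 210, 230, 277 and 278 reads in vector, HEB, E2A and E2-2. LINC00116 encodes the mitochondrial microprotein mitoregulin and had 53, 64, 88 and 51 reads, while LINC00493, which encodes SMIM26, had 28, 22, 17 and 20. In E2-2, LINC01420 was 1.36-fold (1.13 to 1.64) higher, LINC00116 1.01-fold (0.675 to 1.51) lower and LINC00493 1.36-fold (0.740 to 2.55) lower. LINC00461, whose locus holds the microRNA gene MIR9-2 on the same strand, had 154, 157, 191 and 187 reads and was 1.25-fold (1.00 to 1.56) higher. LINC00467 (43, 82, 69 and 67 reads) was 1.60-fold (1.08 to 2.41) higher in E2-2 and 1.80-fold (1.23 to 2.66) in HEB.

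Further members of this group were LINC00963 and 6 others. LINC00963, LINC00926, LINC00339 and LINC00899 held 355 to 2495 reads in all and were within 1.18-fold of vector in E2-2. LINC00173, described in granulocytes, had 37, 27, 28 and 31 reads, LINC00528 52, 33, 43 and 50, and LINC01268, now MROCKI, 20, 18, 17 and 22. In HEB, LINC00528 was 1.67-fold (1.06 to 2.67) and LINC00173 1.454-fold (0.862 to 2.48) lower than vector, and LINC00173 was 1.497-fold (0.892 to 2.54) lower in E2A. None of these 7 was called against vector. Of the 28 symbols listed for a later name or described function, 16 were members, and LINC00152 and LINC00094 were those called.

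Neighbouring protein-coding genes were set beside the members because some lincRNAs act near their own locus. Start sites came from RefSeq, and 47 of the 88 members with a promoter had a protein-coding start within 50 kb, 25 of them divergent, 18 on the same strand and 4 facing. In E2-2 against vector, 40 pairs had enough reads in both genes. Of these, 6 members and 3 neighbours were called, beside 12% of all genes tested in that comparison, and 1 pair was called the same way. Over the 3 comparisons with vector, 12 calls of a member had a tested neighbour within 50 kb and 1 had a neighbour called the same way. Within 200 kb, 2 of 28 did, and the added pair was LINC01106 with LIMS3L, a gene with near-identical copies, 88.5 kb away.

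The pair within 50 kb was LINC00294 and TCP11L1, whose starts lie 36.1 kb apart on the same strand. TCP11L1 had 258, 359, 599 and 647 reads in vector, HEB, E2A and E2-2 and was 2.58-fold (2.23 to 2.99) higher in E2-2. LINC00294 held its 4 libraries in the same order. CD47, which codes for a surface protein that signals against phagocytosis, starts 34.8 kb from LINC01215 and points the other way. It had 1381, 1460, 1892 and 2274 reads and was 1.69-fold (1.58 to 1.81) higher, below the rule. Beside LINC00996, the GTPase gene GIMAP8 had 0, 2, 1 and 14 reads, too few to be called.

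The other 2 called neighbours belonged to members that were not called. SLC12A2, which codes for a sodium, potassium and chloride cotransporter, starts 0.591 kb from LINC01184 in the divergent direction. It had 768 reads in vector, 1668 in HEB, 2820 in E2A and 3770 in E2-2, 5.05-fold (4.67 to 5.46) higher in E2-2. LINC01184 had 79, 90, 124 and 104 reads and was 1.35-fold (1.00 to 1.84) higher. GPR85, an orphan receptor gene, starts 30.8 kb from LINC00998. It had 3738, 2507, 2279 and 1020 reads and was 3.56-fold (3.32 to 3.82) lower in E2-2, and LINC00998 was 1.80-fold lower, as given above. The interval of LINC01184 lay below that of SLC12A2, and the interval of LINC00998 was nearer to 1 than that of GPR85.

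**Figure D4:**
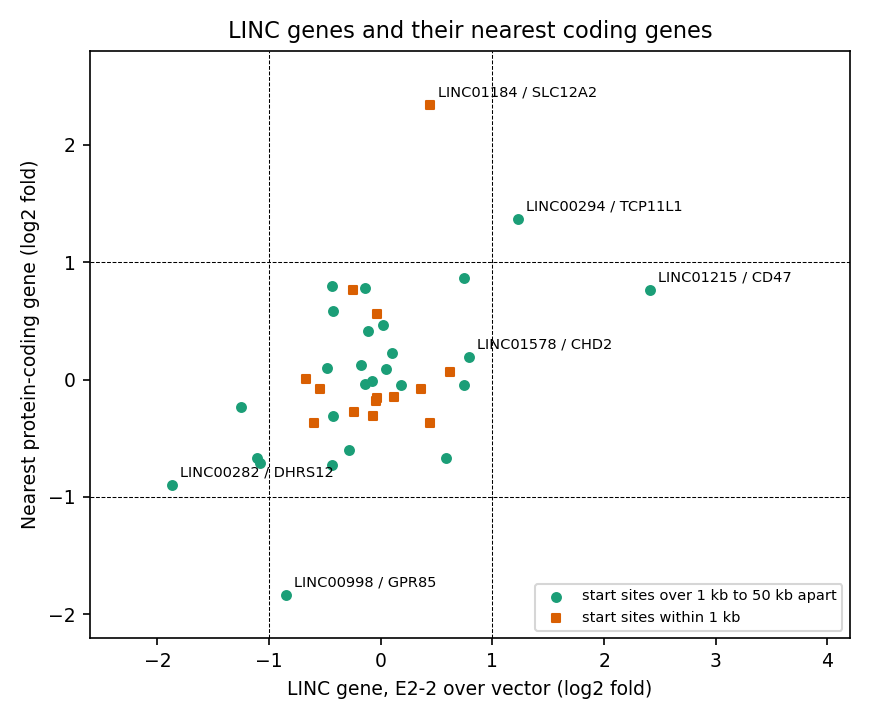
Log2 fold of E2-2 over vector for 40 LINC genes (horizontal) and for the nearest protein-coding gene with a start within 50 kb (vertical), 1 point per pair, with squares for starts within 1 kb. The 14 pairs within 1 kb hold members between -0.67 and 0.62, and their highest neighbour is SLC12A2 at 2.34. Dashed lines mark 2-fold.

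Long non-coding RNA genes with their own names were counted as a further group. Of 54 listed symbols, 50 were in the table and 37 had enough reads in E2-2 against vector. Of these, 4 were called higher and 3 lower, with a median log2 fold of -0.12, beside 8.45% higher and 3.55% lower over all genes. H19, an imprinted gene, had 1, 19, 67 and 482 reads in vector, HEB, E2A and E2-2, a ratio of 495.8 (88.6 to 19620) in E2-2. MIAT had 13, 20, 54 and 161 reads and was 12.7-fold (7.24 to 24.4) higher in E2-2. PCED1B-AS1 (7, 41, 71 and 118 reads) was 17.3-fold (8.16 to 44.1) higher and TP53TG1 (11, 25, 28 and 39 reads) 3.65-fold (1.83 to 7.895). PCED1B-AS1 is an antisense gene, and the strand setting of the counting is not known.

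Lower genes of this group in E2-2 were the snoRNA host gene SNHG15 (1752, 1358, 1417 and 781 reads, 2.18-fold, 2.00 to 2.38), MIR155HG, the host of the microRNA miR-155 (287, 213, 201 and 128 reads, 2.18-fold, 1.76 to 2.71), and LUCAT1 (78, 59, 61 and 17 reads, 4.46-fold, 2.62 to 8.04). In E2A, 4 of 36 were called higher and 0 lower, beside 4.89% and 1.58% of all genes. In HEB, 2 of 35 were called higher and 0 lower, beside 2.55% and 1.23%. MALAT1 and NEAT1, abundant nuclear RNAs, were not called against vector.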

How the data were processed

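RNA-seq was made from GFP-sorted Kasumi-1 cells with a TruSeq RNA kit on an Illumina HiSeq instrument, per the labels' protocols. Per the file headers, the table the authors deposited gives each Ensembl gene a read count and an FPKM value in each library. Builds hg38 and hg19 and the tools MACS2 2.1.1.20160309, Bowtie2 2.2.9, HTSeq 0.9.1 and TopHat2 2.0.9 are named without roles in the submitters' processing notes. What annotation, FPKM gene length and strand setting were used is not given in the sources used here, so overlapping, antisense and near-identical genes are uncertain. FPKM served as an alternative only, and levels are not compared between genes.

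Counts were scaled with edgeR 4.0.16 (TMM) in R 4.3.3, in effective library sizes used for CPM. With 1 library per group, no test was made. Folds carry 95% exact conditional binomial intervals (Clopper-Pearson), which cover counting error only, and whether reads are separate molecules is unknown. A count of 0 was set to 3 reads. Pairs of counts of 3 or fewer got no fold. The script that makes the calls was checked on simulated counts, which measures nothing about differences between cultures. DESeq2 1.42.0 gave alternative size factors, and computation used Python 3.11.15, scipy 1.17.1 and pandas 2.3.3.

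All 115 members matched a RefSeq gene of GRCh38.p14 that overlaps the position in the table. Promoters and start sites are RefSeq's, from a table that is not complete. Ranks use the interval bound nearest to 1. Named are up to 10 members each way against vector and 3 each way in direct comparisons, the 5 with most reads (which are also the 5 uncalled with most reads), listed symbols with later names, and neighbours. SLC12A2, GPR85 and LINC01184, the copies MIR4435-2HG and LINC01123, and the lowest-ranked calls were named after their values were seen. The members and lists were chosen with earlier results of these data known. One listed marker gene is not reported here.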

Additional observations from a re-analysis of the deposited data

How the results depend on the processing

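Each count of called members was recomputed under 7 other settings. With total counts, DESeq2 size factors, FPKM, no minimum on reads or a count of 0 set to 1 read, all 6 counts stayed within 1.5 times the main count. Gene length cancels in a fold, so FPKM repeated the total-count scaling and is not a separate check. Only LINC00642 had a count of 0, so the setting for 0 could not change a call. Fewer members could be called with more reads required. With at least 100 reads in the 2 libraries, 11 members were called in E2-2, 5 in E2A and 2 in HEB against vector, 1 in E2-2 against E2A, 2 in E2-2 against HEB and 1 in E2A against HEB. Among the 62 members with 200 reads or more these counts were 11, 5, 2, 3, 4 and 1. Pairs of a member and neighbour called the same way against vector numbered 0 within 10 kb and 2 within 200 kb. Of 45 calls against vector, 45 held with DESeq2 size factors and 44 with total counts, which FPKM repeats. The exception was LINC01597 in E2-2 at 1.97-fold. No paired analysis was possible because each group holds 1 library, and for the same reason no replicate could be left out. Differences between cultures are not measured by these data.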

Other observations

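Genes around 2 members were looked at after their values were seen. LINC00996 lies beside the GIMAP genes, which code for GTPases of immune cells. Only GIMAP8 and GIMAP6 of these were looked at. GIMAP8, the nearest coding gene by start site at 17 kb, had 0 reads in vector and 14 in E2-2. With its vector count set to 3 reads GIMAP8 was 4.8-fold higher, and its counting interval began at 3.41. The direction was that of LINC00996, with too few reads to be called. GIMAP6 lies farther away, at 150625375 to 150632648. It had 678 reads in vector, 372 in HEB, 439 in E2A and 264 in E2-2. Its level was 2.50-fold (2.16 to 2.89) lower in E2-2, while LINC00996 was 30.9-fold higher. LINC01578, now CHASERR, lies upstream of CHD2, a chromatin remodeler gene whose level it is known to lower in mice. LINC01578 had 200 reads in vector, 227 in HEB, 388 in E2A and 337 in E2-2, and was 1.73-fold (1.45 to 2.075) higher in E2-2 and 1.71-fold (1.44 to 2.04) in E2A. CHD2 had 2155, 2077, 2322 and 2396 reads, 1.14-fold (1.08 to 1.21) higher in E2-2 and 1.05-fold (0.991 to 1.12) lower in E2A.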
